A study of Mus musculus with 15 samples.

Results

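Peroxiredoxins and core antioxidant enzymes were followed at the mRNA level in NIH3T3 cells after the appearance of a single unfolded protein. The set held 10 genes of the 20207 listed in each table, taken by gene name: the 6 peroxiredoxins Prdx1, Prdx2, Prdx3, Prdx4, Prdx5 and Prdx6, and the 4 enzymes Gpx1, Gpx4, Sod1 and Cat. All 10 were found, and all 10 had at least 1 count in every sample and were tested. NIH3T3 is a mouse embryonic fibroblast line. All samples came from NIH3T3 cells that stably carried DD-sfGFP, a fusion of superfolder GFP with a destabilizing domain (DD) made from FKBP12, and that had been sorted for high fluorescence according to the study's methods. The 5 control samples kept the ligand Shield-1 (S1), which holds the DD folded. S1 was withdrawn for 45 min (3 samples), 135 min (3 samples) or 405 min (4 samples), after which the DD is unfolded. The control cells therefore also carried the fusion protein, and no cells without it are compared here. Per the study's methods, S1 was removed by adding purified FKBP(F36V) protein to the medium. The samples without S1 thus also received that protein.

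Superoxide that leaks from respiration is converted to hydrogen peroxide by superoxide dismutases, and hydrogen peroxide is then reduced to water by catalase, glutathione peroxidases and peroxiredoxins. Peroxiredoxins react through a cysteine that thioredoxin, or glutathione in the case of Prdx6, returns to its reduced form, and sulfiredoxin repairs the cysteine when it is oxidized too far. The transcription factor Nrf2, held back by Keap1, binds antioxidant response elements (AREs) near many genes of these systems.

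Prdx1, Prdx2, Prdx6 and Cat were higher 405 min after S1 withdrawal. At that time Cat was 3.38-fold and Prdx1 1.99-fold above control, Prdx6 (2.60-fold) and Prdx2 (2.22-fold) also passed the test, and no member was called lower. At 45 min and 135 min no member passed in edgeR's fit over all samples. The increases of Prdx2, Prdx6 and Cat became smaller when samples were compared within library set 1 and within library set 2, described below. On the log2 scale Prdx2 went from 1.15 to 0.69 and 0.32, Prdx6 from 1.38 to 0.89 and 0.50, and Cat from 1.76 to 1.65 and 1.41. The increases of Prdx1 and Cat did not lose their call under any of the 28 alternatives tried at 405 min. Among these, the fits within set 1 and within set 2 each left 1 sample in a group.

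The libraries differed in a way the groups did not explain. Total counts per sample ran from 6652685 to 30258578. In 5 samples, called library set 2, counts leaned towards GC-rich genes, with slopes of 0.301 to 0.704 log2 units per 10 percentage points of exonic GC content, relative to each gene's mean over the samples. In the other 10 samples, set 1, the slopes ran from -0.668 to 0.028. Set 1 was not even in this respect: its controls had slopes of -0.668 to -0.276 and its samples without S1 had -0.228 to 0.028. Comparisons within set 1 therefore still differ in GC lean between control and the later times. Set 2 held control replicate 2, 45-min replicate 3 and 405-min replicates 1, 2 and 4, so it covered 1 of 5 controls, no 135-min sample and 3 of 4 samples at 405 min. The sets were defined from the data, and the labels name no such sets. The study's methods name a modified Illumina preparation and a NuGEN kit, but the sources used here do not say which samples were prepared with which. The fibroblast markers were present throughout: all 10 had counts in every sample, and their summed level lay between 15700 and 20000 counts per 1000000 (CPM) in control and between 12300 and 18100 CPM at 405 min. Against that, the 5 epithelial markers together reached at most 2.25 CPM, the 5 leukocyte markers 5.02 CPM and the 4 endothelial markers 3.30 CPM in any sample, although no marker was at 0 in all samples. Of the fibroblast markers, 5 of 10 (Col1a2, Col3a1, Pdgfrb, Postn and Vim) were called lower at 405 min than in control, against 13.4% of all genes, and 4 with the set as a term, without Postn (adjusted p = 0.146). The part of this in the results was not tested. Because whole cultures were measured, less RNA per cell and fewer cells of a kind cannot be told apart.

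The sequence upstream of the members was searched on both strands for the ARE core and for the FOXO and GC box motifs. The ARE core TGACNNNGC lay in the 250 bases before the deposited gene start of 2 of 10 members, Prdx1 and Sod1, against 11.9% of 9853 tested genes with such a window. Within 2000 bases it lay before 6 of 10 members (Gpx4, Prdx1, Prdx2, Prdx3, Prdx6 and Sod1), against 49.0% of genes. The sites nearest to the start in these 6 members are given here with the core in capitals and 10 bases on either side, read from the NCBIM37 genome (mm9) on the strand that carries the core, and shown so that their letters can be set against the changes of these genes.
Prdx1, chr4:116358061-116358089, minus strand, 129 bases before the start: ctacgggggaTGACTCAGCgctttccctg
Prdx2, chr8:87493187-87493215, minus strand, 346 bases before the start: tgggagctgcTGACGCTGCagcgacaaaa
Prdx3, chr19:60952410-60952438, plus strand, 1983 bases before the start: gagatctactTGACTCTGCtcccaggtgc
Prdx6, chr1:163181704-163181732, minus strand, 421 bases before the start: ccacttcctcTGACTTAGCccacgtcaca
Gpx4, chr10:79515333-79515361, plus strand, 908 bases before the start: ttgggtgaccTGACTTAGCtgcagggatg
Sod1, chr16:90220941-90220969, minus strand, 32 bases before the start: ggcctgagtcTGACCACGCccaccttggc
Cat held no ARE core in 2000 bases, and neither did Prdx4, Prdx5 or Gpx1. The FOXO motif GTAAACA was found before none of the 10 members in 2000 bases, where 23.5% of genes had it. The GC box GGGCGG, by contrast, lay within 250 bases of the start of all 10, against 62.8% of genes. At Cat the box stood 21 bases before the start, on the minus strand at chr2:103325319-103325344, and is shown because it was the promoter motif found there: caagggtgggGGGCGGtgctgattgg. Overlap between the motifs was not removed, and a match in letters does not show that a factor was bound.

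Levels of different genes were compared per length, using deposited RPKM values rescaled to a sum of 1000000 in each sample. In control cells Sod1, the cytosolic copper-zinc dismutase, was the highest member with a mean of 1485, followed by Prdx1, an abundant cytosolic peroxiredoxin, with 864. Neither range overlapped that of the next gene in the order, and both genes stood above the next one in 5 of 5 controls. Prdx4, the peroxiredoxin of the endoplasmic reticulum, followed at 339. The order below it was Gpx1 (167), Prdx2 (167), Prdx3 (135), Gpx4 (59.9), Prdx5 (46.8), Prdx6 (40.4) and Cat (31.3 per 1000000). From Prdx4 downwards the control ranges of neighbouring genes overlapped, so the order between neighbours is not fixed by these samples. Genes further apart could be separate: the lowest Prdx4 control (249) lay above the highest Prdx3 control (178).

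The length-scaled levels of the 6 peroxiredoxins summed to 1592 ± 212 over the 5 controls (mean ± SD). The sum was 1788 ± 191 in the 3 samples of 45 min, 2024 ± 40.7 in the 3 of 135 min and 3060 ± 190 in the 4 of 405 min. Prdx1 made up 54.9% ± 7.53 of it over the 5 controls and 63.2% ± 3.78 over the 4 samples of 405 min. The control samples ran from 44.1% (replicate 2, the set 2 library) to 65.0% and the 405-min samples from 58.8% to 67.8%, so the shares overlapped. These sums are given as a description with no test.

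**Figure D1:**
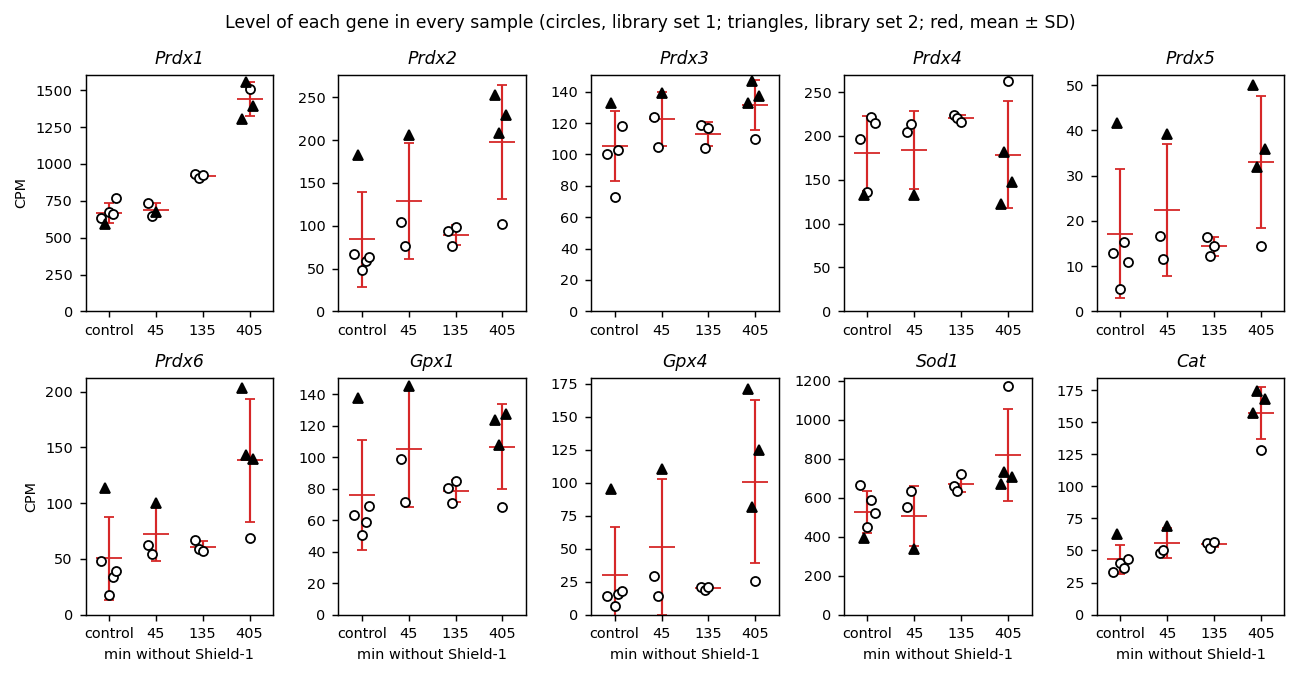
Level of each of the 10 genes in CPM (linear axes from 0) in every sample, by time without S1. Circles are library set 1, triangles library set 2, and red bars the mean ± SD. Prdx1, Sod1 and Cat at 405 min lie above every control sample, Sod1 by little, while for Prdx2, Prdx6 and Gpx4 the triangle of the control group lies far above the circles of that group.

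The first comparison asks whether any member responds within 45 min of S1 withdrawal. No member was called: 0 of 10 had an adjusted p-value under 0.05 in edgeR. Of all 10276 tested genes 0% were called higher and 0% lower. An unadjusted p under 0.05 was found for 365 genes, or 3.55%, and DESeq2 called 2 genes higher and 4 lower. None of the 10 had an unadjusted p under 0.05 in edgeR's fit over all samples, and DESeq2 called no member. The log2 fold changes ran from -0.11 ± 0.26 (SE) for Sod1 to 0.75 ± 0.74 (SE) for Gpx4, and the groups of all 10 members overlapped. With the library set as a term no member was called either. In that edgeR fit Prdx2 (0.44 ± 0.13 SE), Gpx1 (0.34 ± 0.125 SE) and Cat (0.26 ± 0.12 SE) had an unadjusted p under 0.05. So did 990 of all 10276 genes in the same fit. Within set 1 Prdx2, Gpx1 and Prdx6 had changes of 0.54, 0.43 and 0.69. Within set 2, with 1 sample per group, they had 0.165, 0.073 and -0.194. The absence of calls thus does not show that no member responded.

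At 135 min 0 of 10 members passed edgeR's test, against a background of 0.564% of genes called higher and 0.895% called lower. An unadjusted p under 0.05 was found for 2 members, Prdx1 and Cat, and for 11.9% of all genes. DESeq2 called 1 member, Prdx1, and 1.57% of genes higher. Prdx1 was at 930.4, 906.7 and 923.8 CPM in the 3 samples, above every control, and its log2 fold change of 0.47 ± 0.14 (SE) had an adjusted p of 0.14. With the library set as a term, 3 members were called, against 3.06% of genes: Prdx1 (0.43, adjusted p = 0.024), Prdx2 (0.52, adjusted p = 0.0277) and Cat (0.47, adjusted p = 0.0256). All 3 calls were lost with the set and the replicate block together (adjusted p = 0.0535, 0.0697 and 0.0543), where 2.29% of genes were called higher. With a correction for exonic GC content Prdx1 alone was called (0.56, adjusted p = 0.0225), where 127 of 9855 genes were called higher. Prdx2 then had 0.175 (adjusted p = 0.798) and Cat 0.37 (adjusted p = 0.275). All 135-min samples belonged to set 1. Within set 1 alone Prdx2 was the member called (0.58, adjusted p = 0.0486), against 2.08% of genes.

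At 405 min 4 of 10 members were called higher, against 9.99% of all genes, and 0 of 10 lower, against 13.4%. The median log2 fold change of the members was 0.93, with a median of -0.001 over all tested genes. Both medians come from the fit without a term for the library set. With that term the values of Prdx1, Prdx4 and Sod1 were higher and those of the other members lower. The number called moved with that of all genes when a sample was left out. It was 7 without control replicate 2, where 24.5% of genes were called higher. It was 2 without control replicate 4 (5.3% of genes) and 2 without 405-min replicate 1, 2 or 4 (4.06%, 4.88% and 4.19%). With the set as a term 5 members were called higher, Sod1 being the fifth, against 6.17% of genes, and none lower, against 6.87%.

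**Figure D2:**
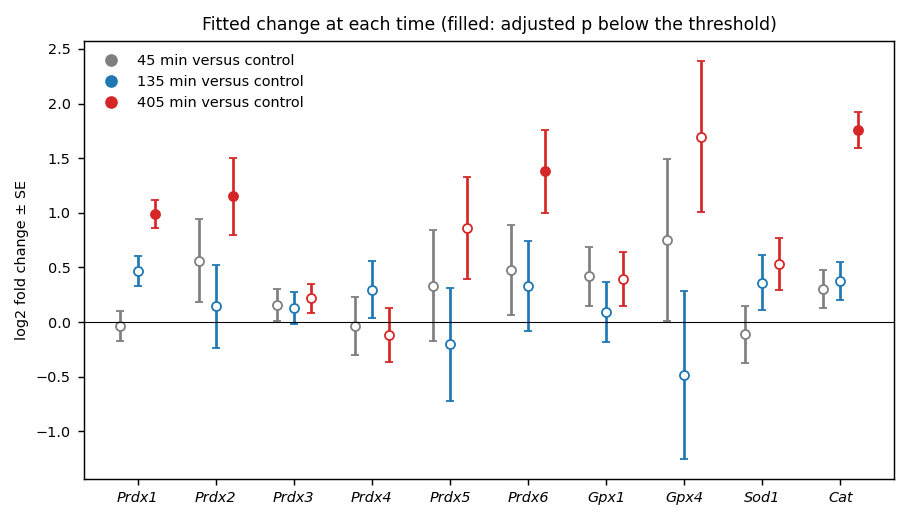
Log2 fold change against control at 45, 135 and 405 min for each of the 10 genes, with bars of 1 SE. Filled points have an adjusted p-value under 0.05 in edgeR; only the 405-min values of Prdx1, Prdx2, Prdx6 and Cat are filled.

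Prdx1 reduces hydrogen peroxide in the cytosol and nucleus and also acts as a chaperone. The gene lies at chr4:116358204-116372605 (mm9, plus strand). Its level in the 5 controls was 635.2, 592.6, 672.2, 661.6 and 770.5 CPM. The 45-min samples had 738.0, 647.1 and 672.6 CPM, within the control range. At 405 min it was 1307.5, 1558.4, 1507.4 and 1390.6 CPM. The 405-min samples did not overlap any other group, and the 135-min samples lay between control and 405 min without overlapping either. The log2 fold change at 405 min was 0.99 ± 0.13 (SE), with an adjusted p of 0.000208, and ran from 0.92 to 1.26 over the alternatives. Within set 1, with 1 sample at 405 min, it was 1.04, and within set 2, with 1 control, it was 1.26. A site on chromosome 16, annotated as the gene Gm7204, holds a copy with 97.5% identity over the whole coding length, and chromosome 17 holds another with 90.2%. How reads were shared between copies is not given in the sources used here, which leaves the absolute level of Prdx1 uncertain.

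Prdx2, the other abundant cytosolic peroxiredoxin, lies at chr8:87493547-87498212 (plus strand). The controls had 67.1, 182.8, 48.4, 58.5 and 63.2 CPM, and the highest of these, replicate 2, was the set 2 library. The 45-min samples had 104.3, 76.5 and 205.9 CPM, the last being set 2 as well. At 135 min the level was 93.3, 76.5 and 98.8 CPM. Each of these exceeded the 4 set 1 controls but not control replicate 2. At 405 min the level was 252.9, 208.0, 102.0 and 229.7 CPM, and the lowest, replicate 3, was the set 1 library. The fitted change was 1.15 ± 0.35 (SE; adjusted p = 0.0309). With the set as a term it was 0.55 (adjusted p = 0.0137). Within set 1 and set 2, each with 1 sample in a group, it was 0.69 and 0.32. The call was lost when any control other than replicate 2, or any 405-min sample other than replicate 3, was left out (adjusted p from 0.0629 to 0.0977). Prdx2 has a copy with 96.3% identity on chromosome 1, inside Cntnap5b.

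Prdx6 reduces phospholipid hydroperoxides as well as hydrogen peroxide and lies at chr1:163170243-163181297 (minus strand). Its control values were 48.3, 113.7, 17.4, 33.8 and 39.0 CPM. The 405-min values were 203.1, 143.4, 68.5 and 139.3 CPM. Here too the control of set 2 exceeded the 405-min sample of set 1, so the groups overlapped, but within each set every 405-min value lay above the controls. The log2 fold change was 1.38 ± 0.38 (SE; adjusted p = 0.0217). It was 0.81 with the set as a term (adjusted p = 0.0308). Within set 1 and set 2, each with 1 sample in a group, it was 0.89 and 0.50. The call was lost without control replicate 4 and without 405-min replicate 1, 2 or 4, at adjusted p-values from 0.0537 to 0.0819.

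Prdx3, Prdx4 and Prdx5 did not pass. Prdx3 is the peroxiredoxin of mitochondria, and its mean ± SD was 105 ± 22.5 CPM over the 5 controls and 132 ± 15.7 CPM over the 4 samples of 405 min (log2 fold change 0.22 ± 0.13 SE, adjusted p = 0.223). Prdx4 stood at 180 ± 42.9 CPM in the same controls and 179 ± 60.9 CPM at 405 min (log2 fold change -0.12 ± 0.25 SE, adjusted p = 0.721). For Prdx4 the sign depended on the set: the value was 0.28 with the set as a term (adjusted p = 0.223). Prdx5, which is found in mitochondria, peroxisomes and the cytosol, was low, with 17.2 ± 14.2 CPM in control and 33.1 ± 14.6 CPM (mean ± SD) at 405 min. Its change of 0.86 ± 0.47 (SE, adjusted p = 0.173) was 0.13 with the set as a term and passed without control replicate 2 (1.42, adjusted p = 0.00971).

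Catalase, encoded by Cat at chr2:103294061-103325310 (minus strand), breaks down hydrogen peroxide in peroxisomes. Its controls had 33.0, 62.5, 40.3, 36.3 and 43.2 CPM. The 45-min samples had 47.9, 50.3 and 69.5 CPM and the 135-min samples 55.7, 52.1 and 56.8 CPM. The set 1 samples of both times lay above the 4 set 1 controls, but the groups overlapped because of control replicate 2. At 405 min Cat was at 157.2, 174.5, 128.5 and 168.4 CPM, so its lowest 405-min value was above every other sample. The log2 fold change was 1.76 ± 0.16 (SE) with an adjusted p of 1.67e-05. It was 1.55 with the set as a term. Within set 1, with 1 sample at 405 min, it was 1.65, and within set 2, with 1 control, it was 1.41. No other locus matched Cat at the identity searched.

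Sod1, at chr16:90220987-90226569 (plus strand), had 664.1, 395.4, 450.5, 590.7 and 523.2 CPM in control and 669.2, 732.0, 1174.6 and 706.1 CPM at 405 min. Every 405-min sample was above every control, by little in the set 2 samples and by far in replicate 3, the set 1 library. The log2 fold change of 0.53 ± 0.24 (SE) had an adjusted p of 0.104. The fitted difference of set 2 from set 1 was -0.80 ± 0.11 (SE) for Sod1 on the log2 scale. With the set as a term its change was 0.94 (adjusted p = 8.85e-05). Within set 1 and set 2, each with 1 sample in a group, it was 0.98 and 0.83. A correction for exonic GC content brought it to 0.04 (adjusted p = 0.941). A pseudogene copy with 97.8% identity, Gm8566, lies on chromosome 6.

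The glutathione peroxidases did not pass. Gpx4, which reduces lipid hydroperoxides in membranes and lies at chr10:79516255-79519184 (plus strand), was at 13.9, 95.0, 6.2, 15.5 and 17.6 CPM in control and at 170.5, 81.6, 25.6 and 124.7 CPM at 405 min. In the shallowest library, control replicate 3, this was 41 counts. Its log2 fold change of 1.70 ± 0.70 (SE, adjusted p = 0.0838) was 0.65 with the set as a term (adjusted p = 0.135) and 2.75 without control replicate 2 (adjusted p = 0.00214), and DESeq2 called it (1.71, adjusted p = 0.0321). The correction for exonic GC content brought it to 1.195 and also called it (adjusted p = 0.0333), where 994 of 9855 genes were called higher. Copies of Gpx4 with up to 99.6% identity cover 67.2% of its coding length. Gpx1, the cytosolic selenoenzyme, had a mean ± SD of 75.9 ± 35.1 CPM over the 5 controls and 107 ± 27.1 CPM over the 4 samples of 405 min. Its change of 0.39 ± 0.25 (SE, adjusted p = 0.235) became -0.02 with the set as a term.

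**Figure D3:**
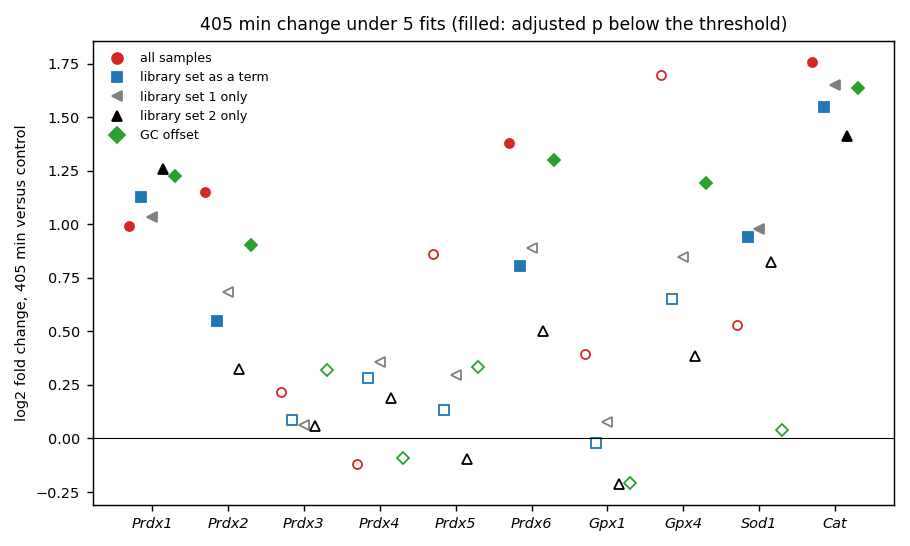
Log2 fold change at 405 min against control for each of the 10 genes under 5 fits: all samples, library set as a term, each set alone, and an offset for exonic GC content. Filled symbols have an adjusted p-value under 0.05. Prdx1 (0.99 to 1.26) and Cat (1.41 to 1.76) are filled under all 5. Each set alone leaves 1 sample in a group (405 min in set 1, control in set 2), which limits those fills.

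The members differed in how far they moved between the library sets, beside any effect of time. The fitted difference of set 2 from set 1, at equal time, ran from -0.80 for Sod1 and -0.78 for Prdx4 through -0.24 for Prdx1 and 0.41 for Cat to 1.22 for Prdx2, 1.49 for Prdx5 and 2.37 for Gpx4 on the log2 scale. Gpx4 also had the highest exonic GC content of the members, at 60.2%, and Prdx1 the lowest at 42.7%. Sod1 did not follow this order, with 54.0% GC and the lowest difference. Over all tested genes the median size of that difference was 0.49, and 5146 of 10276 genes differed between the sets at an adjusted p under 0.05. The 2 members whose calls held throughout, Prdx1 and Cat, were among the 3 members with differences of 0.41 or less in size, together with Prdx3 (0.24).

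**Figure D4:**
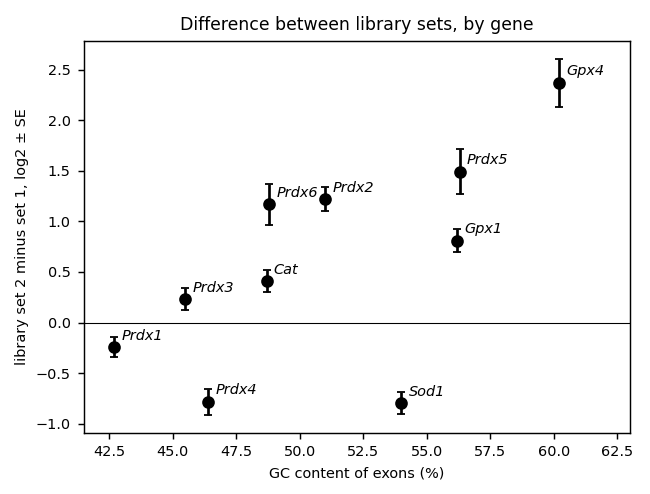
Fitted difference between library set 2 and set 1 in log2 units (bars, 1 SE) against the GC content of the exons in percent, 1 point per gene. Gpx4 (60.2% GC) is the highest at 2.37 and Sod1 (54.0% GC) the lowest at -0.80.

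Between 135 and 405 min 1 of 10 members, Cat, was called higher, against 2.24% of all genes, and 0 of 10 lower, against 2.82%. Cat rose by 1.39 ± 0.19 (SE) on the log2 scale with an adjusted p of 0.00194. The 405-min samples lay above all 135-min samples for 5 members (Prdx1, Prdx2, Prdx6, Gpx4 and Cat), as they did for 24.9% of all tested genes. All 135-min samples were of set 1 and 3 of the 4 samples at 405 min of set 2, and the values moved with the set. With the set as a term the log2 difference went from 1.01 to 0.025 for Prdx2, from 1.05 to 0.098 for Prdx6 and from 2.18 to 0.16 for Gpx4, while that of Sod1 went from 0.17 to 0.72 (adjusted p = 0.0132). That of Prdx1 was 0.52 ± 0.15 (SE, adjusted p = 0.054) without the term and 0.70 (adjusted p = 0.0102) with it, and that of Cat was 1.07 (adjusted p = 0.00144) with it. Prdx1, Sod1 and Cat were then the 3 members called, against 1.66% of genes. The number of members called was 5 without control replicate 2, and 2 without control replicate 3 or 45-min replicate 3, where 7.34%, 5.92% and 3.24% of all genes were called higher. Within set 1, where 405 min had 1 sample, no member and 0% of genes were called, and Cat had a difference of 1.15 (adjusted p = 0.0688). As both comparisons with 405 min use the same 4 samples, they are not independent.

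Ratios of 2 genes within a sample were compared with control by an exact two-sided permutation test, with adjustment over 9 tests. None passed. The log2 ratio of Gpx1 to Gpx4 CPM was 1.93 ± 0.90 (mean ± SD) over the 5 controls and 0.35 ± 0.80 over the 4 samples of 405 min. This difference of -1.59 had an exact p of 0.0397 and an adjusted p of 0.25, and it was -0.87 within set 1 and -0.55 within set 2. The ratio of Sod1 to Sod2, the mitochondrial dismutase, was 2.38 ± 0.33 over the controls and 2.99 ± 0.55 over the samples of 405 min (difference 0.61, exact p = 0.0556, adjusted p = 0.25), and the difference was 1.37 within set 1 and 0.44 within set 2. At 135 min it was 2.75 ± 0.05 over 3 samples, and the samples lay above all controls, but the exact p was 0.0893 and the adjusted p 0.268. The ratio of Prdx1 to Prdx2 was 3.17 ± 0.85 over the controls and 2.94 ± 0.67 at 405 min (difference -0.23, exact p = 0.69, adjusted p = 0.887). The smallest p these designs allow is 0.0179 for 3 against 5 samples and 0.00794 for 4 against 5. After adjustment over 9 tests, a single ratio at its smallest p could not have passed unless other ratios were about as low. The lack of a pass therefore does not show that no ratio changed.

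Other genes of the same pathways were taken from lists of known members. Of the 11 genes of the thioredoxin system, which recharges the peroxiredoxins, 3 rose and 1 fell at 405 min (median log2 fold change 0.59), where 9.99% of all genes were called higher and 13.4% lower. Srxn1, the sulfiredoxin that repairs overoxidized peroxiredoxins, rose by 2.49 ± 0.37 (SE, adjusted p = 0.000555). Sesn2, a stress-induced sestrin, rose by 1.70 ± 0.52 (SE, adjusted p = 0.031), and Txnrd3, a thioredoxin reductase, changed by -0.98 ± 0.18 (SE, adjusted p = 0.00242). Txn1, thioredoxin itself, was the remaining gene called. With the library set as a term 1 gene rose and 1 fell, against 6.17% and 6.87% of all genes, and Sesn2 had 0.76 (adjusted p = 0.0502). At 135 min 1 of the 11, Txnip, an inhibitor of thioredoxin, was lower, with a log2 fold change of -1.51 ± 0.34 (SE, adjusted p = 0.0393). None was higher, and 0.895% of all genes were called lower and 0.564% higher. With the set as a term 2 were higher and 1 lower at 135 min, against 3.06% of all genes higher and 501 of 10276 lower. The higher genes were Srxn1 (1.38, adjusted p = 0.00265) and Sesn2 (2.39, adjusted p = 1.23e-05).

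In the glutathione list 7 of 12 genes were higher and 1 lower at 405 min (9.99% and 13.4% of all genes; median log2 fold change 0.83), and 4 of 12 were higher at 135 min (0.564% of all genes), namely Gclc, Gclm, Gsr and Slc7a11. With the set as a term the counts were 5 higher and 1 lower at 405 min (6.17% and 6.87% of all genes) and 7 higher at 135 min (3.06%). Slc7a11, the cystine importer, rose by 3.09 ± 0.48 (SE, adjusted p = 0.000847) at 405 min. Gclm, the modifier subunit of glutamate-cysteine ligase, rose by 2.27 ± 0.29 (SE, adjusted p = 0.000184). Gsr, glutathione reductase, rose by 1.96 ± 0.18 (SE, adjusted p = 1.6e-05). The gene that fell was Chac1, which degrades glutathione.

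Of 7 genes of the Nrf2 axis, 4 rose at 405 min and 2 at 135 min, against 9.99% and 0.564% of all genes, and none fell. With the set as a term the counts were 5 and 3, against 6.17% and 3.06%. Hmox1, heme oxygenase, rose by 3.09 ± 0.30 (SE, adjusted p = 5.4e-05) at 135 min and by 1.79 ± 0.28 (SE, adjusted p = 0.000803) at 405 min. Keap1 rose by 1.68 ± 0.32 (SE, adjusted p = 0.00327) and Nqo1, a quinone reductase, by 1.49 ± 0.29 (SE, adjusted p = 0.00344) at 405 min. Nfe2l2, which encodes Nrf2 itself, had a log2 fold change of 0.36 (adjusted p = 0.0886). Of 9 other peroxidases and dismutases 4 were tested and 0 were called at 405 min, where 9.99% of all genes were called higher and 13.4% lower. Among them Ccs, the copper chaperone of Sod1, had 0.70 (adjusted p = 0.0586) and Sod2 -0.13 (adjusted p = 0.577).

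**Figure D5:**
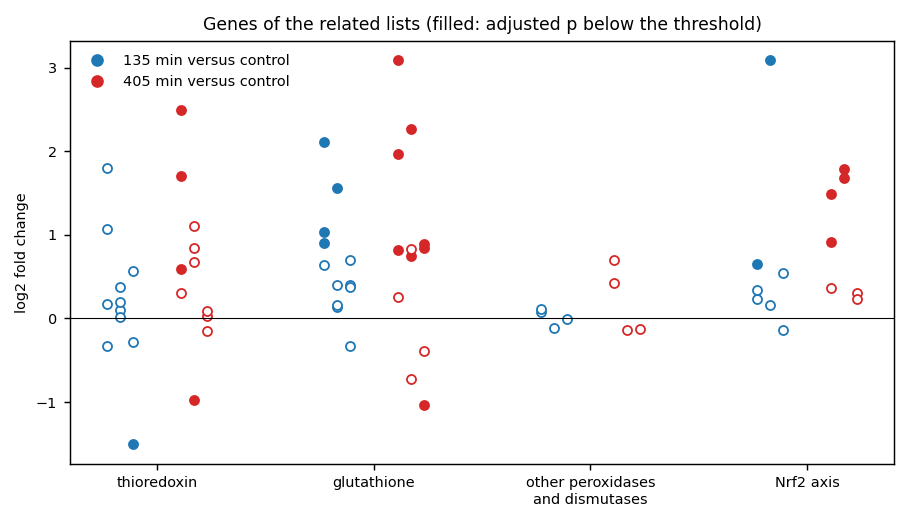
Log2 fold change against control at 135 min (blue) and 405 min (red) of every tested gene in 4 related lists. Filled points have an adjusted p-value under 0.05. The largest value at 135 min is Hmox1 in the Nrf2 axis (3.09) and at 405 min Slc7a11 in the glutathione list (3.09).

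For each member called at 405 min, the gene outside the set whose log2 CPM followed it most closely over the 15 samples was found. These points share library composition, so the correlations are a description only. Prdx1 was most like Ptgr1, a prostaglandin reductase (Pearson's r = 0.988), Cat was most like Blvrb, a biliverdin reductase (0.984), Prdx2 was most like Abhd12 (0.991) and Prdx6 was most like Surf4 (0.990). At 405 min Ptgr1 was higher by 1.57 ± 0.12 (SE) and Blvrb by 2.13 ± 0.24 (SE) on the log2 scale. Both genes were picked for following a called member over these same samples. A rise at 405 min was therefore built into the choice and is no separate result.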

How the data were processed

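Poly(A) RNA of 15 samples was sequenced, and per the labels and the study's methods the authors used DNAnexus to align reads to mm9 and to count them per RefSeq gene. The aligner, its version and the strand setting are not given in the sources used here. The read counts deposited by the authors are expected counts (estimated counts that need not be whole), so they were rounded to whole numbers, although whole counts had been assumed in the design. The authors also deposited RPKM (rescaled here to compare genes), a Z score and a ratio of RPKM to its root mean square, and the last pair was not used.

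The 10276 genes whose count was 1 or more in all samples were fitted with TMM factors and a term for group over all samples by edgeR 4.0.16 (R 4.3.3, glmQLFTest). P-values were adjusted over these genes by the Benjamini-Hochberg method (threshold 0.05). SE is the log2 fold change over the square root of F. CPM values use total counts, without TMM. DESeq2 1.42.0, other normalizations and filters, the replicate block, library sets, a GC offset and leaving out each sample were alternatives, and the fit was tested on simulated data. The library set (slope above 0.15 per 10 points of GC, relative to each gene's mean) and the GC offset were chosen after seeing the data. Correlations used log2 of CPM plus 0.5. Copies were searched by alignment of coding sequences to NCBIM37 (at least 90% identity over 50% of the length).

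Members and lists were chosen with earlier results of these data known. All 10 members are reported, with at most 3 called genes of each related list and the closest-following gene of each called member. Txn1, Chac1, Nfe2l2, Ccs, Postn and the list genes called at 135 min were named after their values were seen. Results for a related list and for a paralog are not reported here. No source states that replicates came from separate cultures, so p-values measure only the spread between these samples. The DD-sfGFP transgene is not among the rows used here, so the labels were not checked by it.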

Additional observations from a re-analysis of the deposited data

Results flagged for a closer look

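A sample stood far from the rest of its group for 5 of the 20 combinations of a member with a group of 4 or 5 samples, where chance gives about 1 in 20. In 4 cases the sample was control replicate 2, the control of library set 2: Prdx2 was at 182.8 CPM against 67.1 in the next control, Prdx5 at 41.6 against 15.4, Gpx1 at 137.5 against 69.1 and Gpx4 at 95.0 against 17.6. In the other case Sod1 was at 1174.6 CPM in 405-min replicate 3, the sample of library set 1 in that group, against 732.0 in the next. The library set moved with all 5 values, and its part in them was not tested apart from the fits within sets.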

How the results depend on the processing

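The calls of Prdx1 and Cat at 405 min kept their side of the threshold under all 28 alternatives, and no member was called lower under any of them. Over single members, 983 of 1100 recomputed values kept both direction and side of the threshold, 21 lost a call, 35 gained one and 61 changed sign, and none of the 61 was called either way. The number of members called higher at 135 min (0 of 10) was 1 with DESeq2, 3 with the library set as a term, 1 within set 1 and 1 with the GC offset. At 405 min (4 of 10) it was 2 when only the compared groups were fitted, where 349 of 10328 genes were called higher. It was 2 to 7 when a sample was left out, where 418 to 2517 genes were called higher. Between 135 and 405 min (1 of 10) it was 3 with DESeq2 (813 of 10276 genes called higher) and 2 with library totals alone (325 of 10276). It was 6 with only the compared groups (1880 of 12188) and 3 with the set as a term (171 of 10276). With the set and the replicate block it was 3 (96 of 10276) and with the GC offset 2 (299 of 9855). Leaving out a sample gave 1 to 5, where 19 to 755 genes were called higher. Within set 1 the 405-min group has 1 sample and within set 2 the control group has 1, so the lone sample is assumed to vary like the others; set 2 holds no 135-min sample, so that comparison was not run there. Over all genes the calls at 405 min (1027 higher and 1382 lower) ran from 121 and 94 within set 1 to 2517 and 2463 without control replicate 2. Those at 135 min (58 and 92) ran from 11 and 20 with the replicate block to 314 and 501 with the set as a term, and those between 135 and 405 min (230 and 290) from 0 and 0 within set 1 to 1880 and 1324 with only the compared groups. The median log2 fold change of all genes moved by over 0.1 at 405 min with library totals alone (0.114, with 1131 higher and 1059 lower) and with the GC offset (-0.13).

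Deviations of same-numbered samples from their group means had a mean r of -0.115 over 19 pairs, of which 4 were above 0.1. For differently numbered samples it was 0.028 over 64 pairs, of which 20 were above 0.1. The library set was not removed before this check, and samples of the same number lay in different sets. The check therefore cannot decide whether the numbers pair the samples, and the main fit did not use them as pairs. With the replicate block 2 members, Prdx1 and Cat, were called higher at 405 min, as were 333 of 10276 genes.

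Sign changes of the log2 fold change were as follows. With library totals alone they were 0.045 for Prdx1 and 0.03 for Prdx4 at 45 min, and with the replicate block 0.005 for Prdx1 and 0.053 for Prdx4. With the library set as a term they were 0.001 for Prdx1 and 0.048 for Prdx4 at 45 min, 0.289 for Prdx5 and 0.49 for Gpx4 at 135 min, 0.281 for Prdx4 and -0.022 for Gpx1 at 405 min, and -0.093 for Prdx3, 0.117 for Prdx4, -0.156 for Prdx5 and -0.338 for Gpx1 between 135 and 405 min. Within set 1 they were 0.058 for Prdx4 and 0.023 for Sod1 at 45 min, 0.355 for Prdx5 and 0.571 for Gpx4 at 135 min, 0.358 for Prdx4 at 405 min, and -0.126 for Prdx3, 0.174 for Prdx4, -0.06 for Prdx5 and -0.288 for Gpx1 between 135 and 405 min. Within set 2 they were 0.176 for Prdx1, -0.095 for Prdx5 and -0.194 for Prdx6 at 45 min, and 0.189 for Prdx4, -0.097 for Prdx5 and -0.211 for Gpx1 at 405 min. With the replicate block and the set together they were 0.025 for Prdx1 and 0.104 for Prdx4 at 45 min, 0.329 for Prdx5 and 0.641 for Gpx4 at 135 min, 0.325 for Prdx4 and -0.028 for Gpx1 at 405 min, and -0.123 for Prdx3, 0.124 for Prdx4, -0.242 for Prdx5, -0.369 for Gpx1 and -0.012 for Gpx4 between 135 and 405 min. With the GC offset they were 0.08 for Prdx1 at 45 min, -0.208 for Gpx1 at 405 min, and -0.318 for Gpx1 and -0.191 for Sod1 between 135 and 405 min. With the replicate block and the GC offset they were 0.072 for Prdx1 and 0.003 for Prdx4 at 45 min, -0.224 for Gpx1 and -0.028 for Sod1 at 405 min, and -0.307 for Gpx1 and -0.213 for Sod1 between 135 and 405 min. Leaving out a sample moved the 45-min values from -0.109 to 0.013 for Prdx1, -0.179 to 0.176 for Prdx4, -0.272 to 0.89 for Prdx5, -0.398 to 1.802 for Gpx4 and -0.328 to 0.135 for Sod1. It moved the 135-min values from -0.402 to 0.35 for Prdx5 and -0.705 to 0.565 for Gpx4, the 405-min value of Prdx4 from -0.393 to 0.032, and the value of Sod1 between 135 and 405 min from -0.083 to 0.266. The cause was not tested.

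None of the 9 ratios passed under any of 108 recomputed values, and 9 of these changed sign. Within either set, and with the replicate block, too few samples remained for any adjusted p to fall under 0.05. The values of those settings could not have passed, so they do not bear on whether a ratio changed. In the remaining settings, as in the main test, a single ratio could not have passed by itself. Prdx1 over Prdx2 was 0.011 at 45 min and 0.927 at 405 min within set 2, and -0.167 at 135 min and 0.348 at 405 min within set 1. Gpx1 over Gpx4 at 135 min was -0.306 within set 1, and Sod1 over Sod2 at 45 min was -0.164 within set 2. Leaving out a sample moved Prdx1 over Prdx2 at 135 min from -0.167 to 0.358, and Gpx1 over Gpx4 from -0.853 to 0.109 at 45 min and from -0.306 to 0.319 at 135 min.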
